A study of Homo sapiens with 6 samples.

Results

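Hepatocytes make most of the proteins of blood plasma. Here 50 genes, most of them for such proteins, were followed after knockdown of MTR4 in a liver cancer cell line. They were chosen by symbol as genes of secreted liver proteins or of lipoprotein assembly. The rule holds no measured value, but earlier results of these data were known when the list was made. All 50 were found among the 60675 genes counted. They comprise 10 carrier proteins, 9 protease inhibitors, 9 acute-phase proteins, 5 further plasma glycoproteins, 12 apolipoproteins and 5 genes for lipoprotein assembly and remodelling. All 50 are termed plasma protein genes below, although MTTP and A1CF of the last group act inside the cell. PLC/PRF5 cells, a human hepatocellular carcinoma (HCC) line, gave 3 libraries labelled control and 3 labelled MTR4 KD. Both groups are of this 1 line and were grown in DMEM with fetal bovine serum. The paper describes extracting total RNA from cells but does not state which RNA was selected for the libraries. The paper describes an inducible shRNA against MTR4 and compares the cells before and after doxycycline (Doxy), while the labels name neither the agent nor a time. No library of cells with Doxy and a scramble shRNA was analysed here. Nothing in the labels says that the libraries of a group came from separate cultures, so p-values may measure only the spread between technical samples.

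Plasma proteins pass from the hepatocyte through the secretory pathway into the blood, where carriers hold hormones, metals and vitamins, inhibitors restrain proteases, and apolipoproteins form the shell of lipoprotein particles. Acute-phase genes are the ones whose output the liver changes during inflammation, mainly under interleukin-6 and interleukin-1. Well differentiated hepatocytes express most of these genes strongly, and HCC cells keep them to a variable degree. MTR4, whose current gene symbol is MTREX, is the RNA helicase that feeds nuclear transcripts to the RNA exosome.

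The depth lay between 60686786 and 72708682 gene-assigned reads in each library. The libraries fell into 2 classes by the share of entries with a non-unique alignment. The share was between 34.7% and 37.5% in control 1, control 3 and MTR4 KD 3, and between 14.8% and 18.2% in control 2, MTR4 KD 1 and MTR4 KD 2. For pairs of libraries of 1 group, chi-square divided by its degrees of freedom was 3.60 and 5.64 within a class and between 50.8 and 57.1 across the classes. Each class held both groups, so the class was a term of the comparison and the difference within each class is given beside it. MTREX itself measured between 72.2 and 87.4 CPM (counts in every 1000000 reads, with TMM scaling) in the control libraries and between 44.1 and 48.8 CPM in the MTR4 KD libraries, with a log2 fold change of -0.82 (SE, or standard error, of 0.0542; adjusted p = 3.62e-07 by the quasi-likelihood test of edgeR). Here a gene counts as called when this adjusted p, over all 18075 tested genes, is under 0.05, and every fold change is of MTR4 KD against control.

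The PLC/PRF5 cells expressed plasma protein genes over a very wide range. In the control mean, 15 of the 50 genes were over 100 CPM and the 5 highest were, in descending order, SERPINA1, APOB, AMBP, APOE and A2M. At the other end, 14 genes were under 1 CPM in both group means. Of the 50 genes, 41 passed the filter on low counts, 38 of them with a level above the filter's minimum of 0.162 CPM in all 6 libraries. FETUB, SAA1 and AZGP1 passed it in only some libraries. The 9 genes that did not pass were SERPINA7, SERPINA3, ITIH4, CRP, SAA2, SAA4, APCS, LECT2 and APOC2. All 50 together took between 2.21% and 2.48% of the reads in the control libraries and between 2.37% and 2.58% in the MTR4 KD libraries. SERPINA1 made up between 41.7% and 46.1% of their reads in the control libraries and between 35.6% and 39.3% in the MTR4 KD libraries. Without SERPINA1 the others summed to between 12951 and 13563 CPM in control and between 15011 and 15943 CPM in MTR4 KD, so that these sums did not overlap.

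**Figure D1:**
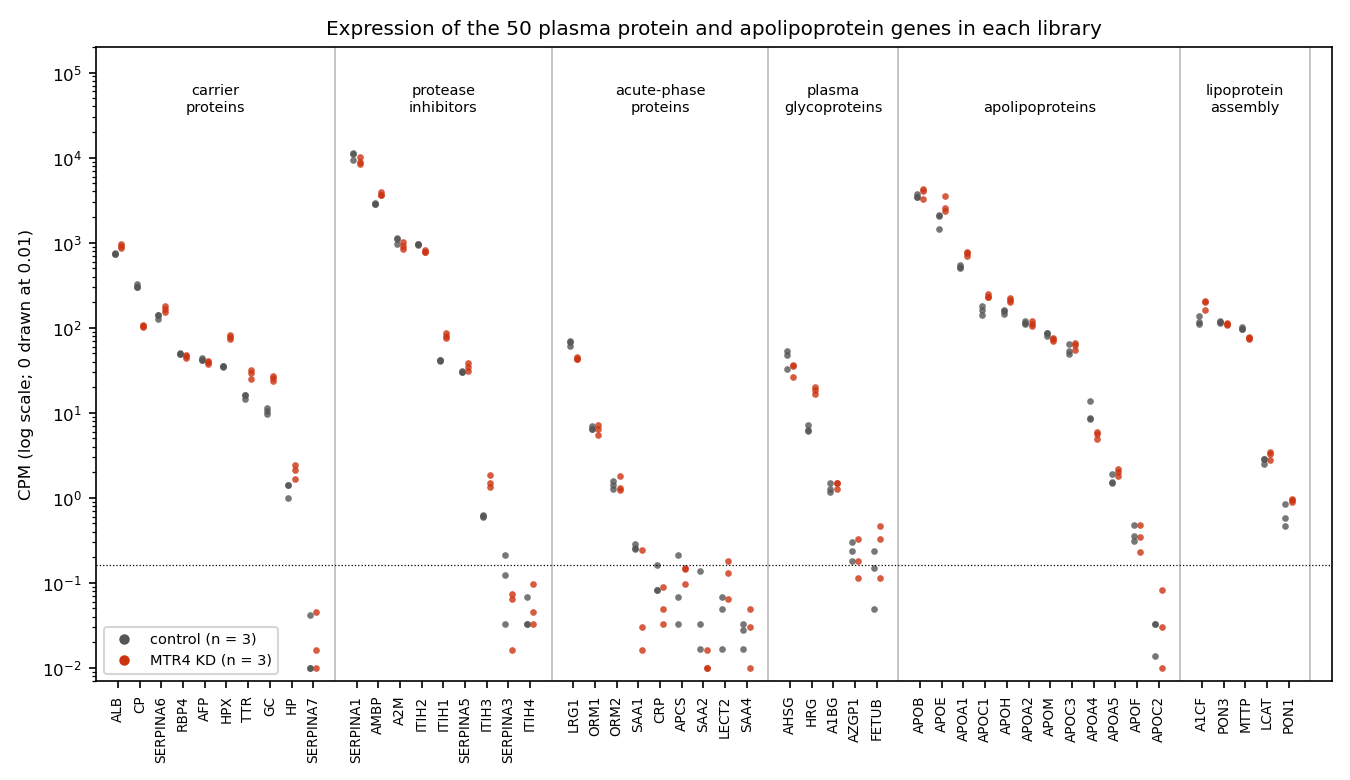
CPM of each of the 50 genes in each library, on a log axis, with control in grey and MTR4 KD in red and genes grouped by role. Points at 0 are drawn at 0.01, and the dotted line is the filter's minimum of 0.162 CPM. SERPINA1 is highest in its group, while most genes of the acute-phase group lie near or under the line.

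After MTR4 knockdown, 15 of the 41 tested genes were called higher, 7 were called lower and 19 were not called. This is 36.6% higher and 17.1% lower, against 9.43% higher and 10.8% lower among all tested genes. In either direction 53.7% of the 41 were called, where the share over all tested genes was 20.2%. The list was made with earlier results of these data known. The groups did not overlap in 25 of the 41 (61.0%), against 24.7% of all tested genes, and 20 of the 22 called genes were among them. The 25 include SAA1, which had few reads and passed the filter mainly through the control libraries. The median log2 fold change was 0.19 for the 41 and 0.01 for all tested genes. Within the library classes the median of the 41 was 0.24 for the class with more non-unique reads and 0.13 for the other. All 22 called genes had the same sign in both classes, and the smallest such difference was 0.10 on the log2 scale. The same held for 3633 of all 3649 called genes. The calls come from a fit to both classes, so this agreement is no separate support. An interaction test with edgeR for a change that differed between the classes called 0 of the 41 after adjustment, where 0.974% of all tested genes were called. Before adjustment, 3 of the 41 (SAA1, HRG and APOB) had a p under 0.05 in it. The share of all tested genes with such an unadjusted p was not computed, so these 3 cannot be set apart by it. Without the filter on low counts the same test called APOB. With a fold change over 2 as a further condition, 4 genes were called higher (HRG, ITIH3, GC and HPX) and 1 lower (CP), where 1.92% of all tested genes met both conditions.

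The fit with condition as its only term, which leaves the class difference in the error, called 3.60% of all tested genes. By it 12 of the 41 genes were higher and 4 lower, and APOE, SERPINA5, SERPINA6, AHSG, APOA4 and APOM lost the call. Markers of other cell types summed to between 68.2 and 85.9 CPM in the control libraries and between 55.5 and 76.2 CPM in the MTR4 KD libraries. Most of this was EPCAM. PTPRC, CD3E, DCN, LUM and ACTA2 had libraries at 0, and PECAM1 matched no counted gene. Of 16 listed markers 9 were tested and 4 were called lower (KRT19, CD14, COL3A1 and SOX9), where 10.8% of all tested genes were. The part of these markers in the changes of the plasma protein genes was not tested. In such bulk samples fewer cells with a transcript and less of it per cell cannot be told apart.

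**Figure D2:**
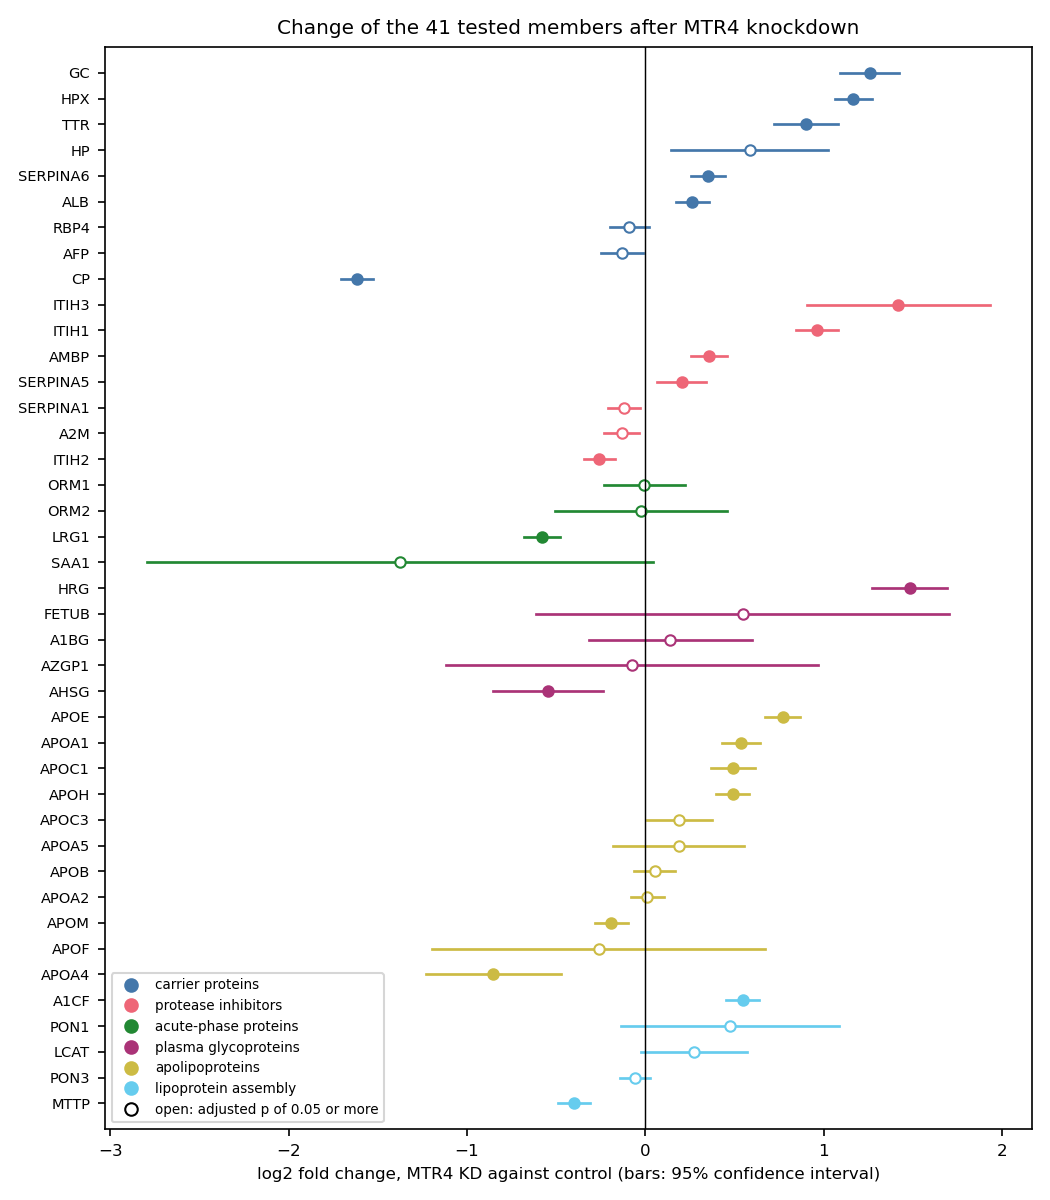
Log2 fold change of MTR4 KD against control for the 41 tested genes, grouped and coloured by role, with bars for the 95% confidence interval from edgeR with library class as a term. Filled points have an adjusted p under 0.05; they run from -1.62 for CP to 1.48 for HRG, with 15 to the right and 7 to the left of 0.

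Carriers of vitamin D, heme and thyroxine rose, and ceruloplasmin fell. Of 10 listed, 9 were tested, 5 were called higher and 1 lower, and their median log2 fold change was 0.35. For this and each later group, the shares over all tested genes were 9.43% higher and 10.8% lower. GC (ENSG00000145321), the vitamin D-binding protein, measured 11.3, 10.4 and 9.78 CPM in control 1 to 3 and 25.6, 27.1 and 23.8 CPM in MTR4 KD 1 to 3. Every MTR4 KD library was thus above every control library, at 2.39-fold in the fit (log2 fold change 1.26, SE 0.0765, adjusted p = 1.75e-07, edgeR). HPX (ENSG00000110169), which binds free heme, measured 35.1, 34.6 and 35.0 CPM in control and 73.5, 76.9 and 81.2 CPM in MTR4 KD. The control libraries were almost level and the groups were far apart, with a 2.24-fold rise (log2 fold change 1.17, SE 0.0476, adjusted p = 1.01e-08, edgeR). TTR (ENSG00000118271), the transthyretin that carries thyroxine and the retinol-binding protein, stood at 16.0, 16.1 and 14.7 CPM in control and 24.9, 29.2 and 31.8 CPM in MTR4 KD. Its groups did not overlap either, and the log2 fold change was 0.90 (SE 0.0832, adjusted p = 7.22e-06, edgeR).

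The largest fall among all 41 genes was that of a carrier. CP (ENSG00000047457) encodes ceruloplasmin, the ferroxidase that carries most copper in plasma. It measured 304, 331 and 304 CPM in control and 106, 104 and 102 CPM in MTR4 KD, a mean of 313 ± 15.4 against 104 ± 2.07 CPM (SD, n = 3 each). The level was 3.07 times lower after knockdown (log2 fold change -1.62, SE 0.0412, adjusted p = 1.69e-10, edgeR), and the within-class differences were -1.57 and -1.66. Of the exon bases of CP, 20.1% lie in HPS3, a gene on the opposite strand, and the strand setting of the count is not given in the sources used here. Of the other called genes, APOC1 had the largest such overlap with another counted gene, at 40.7% of its exon bases, followed by APOA1 with 11.2%, APOM with 11.0% and HRG with 9.0%.

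Albumin and alpha-fetoprotein, the adult and the fetal carrier of the same gene family, lie side by side on chromosome 4. ALB (ENSG00000163631) measured 740, 761 and 742 CPM in control and 915, 953 and 869 CPM in MTR4 KD. It rose by a small step that was larger than the spread of either group (748 ± 11.7 against 912 ± 41.8 CPM, SD, n = 3 each), with a log2 fold change of 0.26 (SE 0.0426, adjusted p = 8.06e-04, edgeR). AFP (ENSG00000081051), the fetal protein used as a serum marker of HCC, had 44.3, 42.2 and 41.7 CPM in control and 40.7, 39.1 and 37.8 CPM in MTR4 KD. Its groups did not overlap, but the log2 fold change of -0.13 (95% interval -0.25 to -0.01) was not called (adjusted p = 0.108, edgeR). On the scale of CPM per kb of exon, ALB led the carriers with 218 in the control mean, and AFP had 13.3. AFM, the afamin gene next to them, was at 0.88 ± 0.25 CPM in control and 2.58 ± 0.25 CPM in MTR4 KD (SD, n = 3 each), a log2 fold change of 1.42 (adjusted p = 2.18e-04, edgeR).

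Both promoters are shown because the neighbours share a motif there. The 250 bases before each start site come from RefSeq on GRCh38.p14, plus strand, at chr4:73404037-73404286 for ALB and chr4:73435971-73436220 for AFP. Capitals mark matches on either strand to GTTAATNAT, an HNF1-type motif, TTGCNNAA, a C/EBP-type motif, and TATAAA, the TATA box.
ALB: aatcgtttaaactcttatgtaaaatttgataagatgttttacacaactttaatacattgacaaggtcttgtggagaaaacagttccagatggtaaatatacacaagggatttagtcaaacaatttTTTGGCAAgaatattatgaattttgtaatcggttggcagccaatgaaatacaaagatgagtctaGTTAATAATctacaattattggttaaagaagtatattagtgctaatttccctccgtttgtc
AFP: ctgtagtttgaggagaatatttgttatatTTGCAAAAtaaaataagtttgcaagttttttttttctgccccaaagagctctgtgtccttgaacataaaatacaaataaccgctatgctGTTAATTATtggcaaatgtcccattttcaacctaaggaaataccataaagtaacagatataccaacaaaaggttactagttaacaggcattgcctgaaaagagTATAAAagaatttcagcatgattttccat

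Of the 50 genes, 36 matched a promoter in the RefSeq table. The HNF1-type motif was in 2 of these 36, ALB and AFP, and in 0.678% of all 27305 promoters of this length. It begins 61 bases before the start site in ALB and 132 bases before it in AFP. The C/EBP-type motif was in 6 of the 36, in AFP, AHSG, ALB, HPX, SAA4 and SERPINA7, and in 9.127% of all promoters. The letters TATAAA were in 9 of the 36 and in 11.133% of all promoters, and TTCNNNGAA, a STAT3-type motif, was in 6 of the 36 and in 6.775% of all. Among the matched genes called higher, 2 of 12 held the C/EBP-type motif, and 1 of the 5 matched genes called lower held it. These matches are letters in a fixed window, and no measurement of factor binding was made in these samples.

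The other carriers moved less. SERPINA6, the corticosteroid-binding globulin, was higher with a log2 fold change of 0.35 (136 ± 7.60 against 168 ± 14.2 CPM, SD, n = 3 each; adjusted p = 1.32e-04, edgeR). HP, the hemoglobin-binding haptoglobin, was low, with between 0.995 and 1.43 CPM in control and between 1.68 and 2.44 CPM in MTR4 KD. Its groups did not overlap, yet the log2 fold change of 0.59 was not called (adjusted p = 0.0601, edgeR). RBP4, the retinol carrier, had a log2 fold change of -0.09 and was not called (95% interval -0.20 to 0.02). SERPINA7, the thyroxine-binding globulin, had 0 to 3 reads in every library and was not tested.

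Protease inhibitors held the most abundant transcript of all. SERPINA1 (ENSG00000197249), or alpha-1 antitrypsin, the main inhibitor of neutrophil elastase, measured 11457, 9258 and 11014 CPM in control and 8406, 8816 and 10210 CPM in MTR4 KD. MTR4 KD 3 lay inside the control range, and both groups split by library class. The log2 fold change was -0.12 (95% interval -0.21 to -0.03, adjusted p = 0.0576, edgeR), so that it was not called, although limma-voom and DESeq2's Wald test called it lower (adjusted p = 0.0135 and 0.0230). A2M, a broad inhibitor that traps proteases of many kinds, stood at the threshold in the same way, with a log2 fold change of -0.13 (adjusted p = 0.05003, edgeR, and so not under 0.05; 0.0191 by limma-voom and 0.0160 by DESeq2). Per kb of exon, SERPINA1 had 2158 CPM in the control mean, and AMBP was next with 1516.

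The inter-alpha-trypsin inhibitor family did not move as 1 group. In it, heavy chains of the ITIH genes are joined to bikunin, which AMBP encodes, and the complex binds hyaluronan in the extracellular matrix. ITIH1 (ENSG00000055957) measured 40.1, 42.1 and 41.4 CPM in control and 75.7, 86.1 and 80.5 CPM in MTR4 KD. This was a 1.95-fold rise without overlap, with a log2 fold change of 0.96 (SE 0.0550, adjusted p = 1.03e-07, edgeR). ITIH3 (ENSG00000162267) was far lower in level, at 0.632, 0.594 and 0.614 CPM in control and 1.4995, 1.33 and 1.86 CPM in MTR4 KD. Its groups did not overlap, and the fit gave a 2.67-fold rise (log2 fold change 1.42, SE 0.237, adjusted p = 0.00102, edgeR). AMBP rose from 2875 ± 59.2 to 3707 ± 166 CPM (SD, n = 3 each), a log2 fold change of 0.36 (adjusted p = 1.45e-04, edgeR). ITIH2 fell from 958 ± 19.6 to 791 ± 25.3 CPM (SD, n = 3 each), a log2 fold change of -0.26 (adjusted p = 6.99e-04, edgeR). Per kb of exon, ITIH2 had 288 CPM in the control mean, ITIH1 9.07 and ITIH3 0.107, so the heavy chain with the highest level fell while those with lower levels rose. ITIH4 had 2 to 6 reads per library and was not tested. Of its exon bases 71.2% lie in other counted genes.

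The remaining inhibitors were SERPINA5 and SERPINA3. SERPINA5, the protein C inhibitor, was at 30.7 ± 0.55 CPM in control and 34.5 ± 3.53 CPM in MTR4 KD (SD, n = 3 each), and its groups overlapped. It was called higher with the smallest rise of the 15 (log2 fold change 0.20, adjusted p = 0.0382, edgeR). The call was lost without control 1, control 3, MTR4 KD 2 or MTR4 KD 3, and without MTR4 KD 3 the log2 fold change was 0.11 (adjusted p = 0.430, edgeR), while without control 2 it was 0.31. SERPINA3, the antichymotrypsin gene, had 1 to 13 reads per library and was not tested. In all, 4 of the 7 tested inhibitors were called higher and 1 lower, with a median log2 fold change of 0.20.

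The 9 genes grouped here as acute-phase proteins were mostly near the limit of detection in these cells. Of the 4 tested, only LRG1 had a change that can be read. ORM1 and ORM2 had log2 fold changes of almost 0, and SAA1 passed the filter mainly through the control libraries. This covers only the genes placed in this group. Of 9 listed, only LRG1 was called. LRG1 (ENSG00000171236), a leucine-rich glycoprotein of plasma, measured 70.4, 61.6 and 68.8 CPM in control and 42.8, 42.7 and 44.9 CPM in MTR4 KD. The MTR4 KD libraries were tightly grouped under all controls, with a log2 fold change of -0.58 (SE 0.0472, adjusted p = 2.52e-06, edgeR). Because LRG1 held most of the reads of this group, the sum over the 9 genes was between 70.2 and 78.8 CPM in control and between 49.9 and 54.0 CPM in MTR4 KD. ORM1 and ORM2, which encode the orosomucoids, had log2 fold changes of -0.01 and -0.02 and were not called, with 95% intervals of -0.23 to 0.22 and -0.51 to 0.46. These near-identical neighbours can share reads, so their separate levels are uncertain.

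SAA1, a serum amyloid A that associates with high density lipoprotein, had 16, 21 and 15 reads in control and 1, 2 and 15 reads in MTR4 KD. MTR4 KD 3 thus stood with the controls. The log2 fold change was -1.38 (95% interval -2.79 to 0.04, adjusted p = 0.165, edgeR) and was not called. Without MTR4 KD 3, the library that differed, it was -3.52. SAA1 passed the filter mainly through the group where it is high, with 3 control libraries and 1 MTR4 KD library above the minimum. No change of SAA1 can be read from this test. The within-class difference was -0.05 where MTR4 KD 3 is the knockdown library and -2.57 in the other class. Reads may be shared with its near copy SAA2. The other serum amyloid genes, SAA2 and SAA4, had 0 to 10 and 0 to 3 reads per library. CRP, the C-reactive protein, had 2 to 10, APCS, the serum amyloid P pentraxin, 2 to 13, and LECT2, a leukocyte chemotactic factor, 1 to 12. A count of 3 reads corresponded to between 0.0413 and 0.0494 CPM, so that differences among these genes were not detectable at this depth.

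The 5 other plasma glycoproteins gave the largest rise of the 41 genes and a fall next to it. HRG (ENSG00000113905) encodes histidine-rich glycoprotein, which binds heparin, zinc and plasminogen. It measured 7.20, 6.04 and 6.24 CPM in control and 18.5, 20.02 and 16.5 CPM in MTR4 KD. The means were 6.49 ± 0.62 and 18.3 ± 1.74 CPM (SD, n = 3 each), and the rise was 2.79-fold (log2 fold change 1.48, SE 0.0983, adjusted p = 3.72e-07, edgeR). AHSG (ENSG00000145192) encodes fetuin-A, which keeps calcium phosphate in solution. It measured 53.3, 47.2 and 32.3 CPM in control and 36.7, 35.5 and 26.0 CPM in MTR4 KD. Control 3 was below MTR4 KD 1 and 2, so the groups overlapped. The log2 fold change was -0.55 (SE 0.143, adjusted p = 0.0164, edgeR), with -0.67 and -0.38 within the classes, and the call was lost without MTR4 KD 3 (adjusted p = 0.150) and by DESeq2's Wald test (adjusted p = 0.130). Without control 1 the log2 fold change was -0.36. FETUB, the fetuin-B gene between them, had 3 to 31 reads and was not called (log2 fold change 0.55, 95% interval -0.61 to 1.702).

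HRG and AHSG lie within 131.4 kb on chromosome 3 of GRCh38, from 186613060 to 186744410, with FETUB and KNG1, the kininogen gene. KNG1 rose with HRG, from 8.24 ± 1.00 to 15.6 ± 1.41 CPM (SD, n = 3 each; log2 fold change 0.89, adjusted p = 4.17e-05, edgeR). The promoters of the pair are shown since the genes sit in 1 cluster and were called in opposite directions. They are read from RefSeq on GRCh38.p14, plus strand, at chr3:186665764-186666013 for HRG and chr3:186612810-186613059 for AHSG. Capitals mark TATAAA in HRG, and in AHSG a match to CAAAGTCCA, an HNF4-type motif, on the minus strand and one to TTGCNNAA on the minus strand.
HRG: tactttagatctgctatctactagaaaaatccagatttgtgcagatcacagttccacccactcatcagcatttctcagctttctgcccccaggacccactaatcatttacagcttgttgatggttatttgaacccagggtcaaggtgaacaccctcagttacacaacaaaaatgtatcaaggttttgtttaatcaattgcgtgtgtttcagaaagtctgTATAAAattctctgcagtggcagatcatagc
AHSG: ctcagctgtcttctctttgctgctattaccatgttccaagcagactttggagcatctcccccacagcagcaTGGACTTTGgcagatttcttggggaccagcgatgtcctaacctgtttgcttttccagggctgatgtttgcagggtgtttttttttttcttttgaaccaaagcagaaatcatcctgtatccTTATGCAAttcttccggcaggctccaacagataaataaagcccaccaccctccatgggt

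The TATA box of HRG begins 31 bases before the start site, while the AHSG window does not hold TATAAA. The HNF4-type motif was in 1 of the 36 matched promoters, that of AHSG, and in 0.293% of all. The last glycoproteins of this group were A1BG and AZGP1, with log2 fold changes of 0.14 and -0.07. Neither was called, and 51.0% of the exon bases of A1BG lie in other counted genes.

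The 12 apolipoproteins summed to between 6266 and 6643 CPM in the control libraries and to between 7785 and 8365 CPM in the MTR4 KD libraries, without overlap. This separation rested on APOE, with a mean of 1874 CPM in control and 2834 CPM in MTR4 KD. Without APOE the sums of MTR4 KD 3 and control 2 overlapped. Of the 12 genes 11 were tested, 4 were called higher and 2 lower, and the median log2 fold change was 0.19. APOE (ENSG00000130203), which directs the uptake of remnant particles, measured 2051, 1453 and 2117 CPM in control and 2387, 2554 and 3562 CPM in MTR4 KD. In both groups the libraries with more non-unique reads were higher, and the groups did not overlap. The log2 fold change was 0.77 (SE 0.0445, adjusted p = 1.09e-07, edgeR) and was 0.77 within each class, while the fit with condition only gave 0.60 (adjusted p = 0.156). APOE also led the apolipoproteins per kb of exon, with 870 CPM in the control mean. Next to it, APOC1, a small apolipoprotein that hinders the uptake of particles, rose from 162 ± 19.7 to 236 ± 10.6 CPM (SD, n = 3 each; log2 fold change 0.49, adjusted p = 5.44e-05, edgeR).

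The cluster of 4 apolipoprotein genes on chromosome 11 of GRCh38, from 116789367 to 116837622, also held calls in both directions. APOA1 (ENSG00000118137), the main protein of high density lipoprotein, measured 546, 515 and 501 CPM in control and 706, 749 and 781 CPM in MTR4 KD. All MTR4 KD libraries were above all controls, with a log2 fold change of 0.54 (SE 0.0488, adjusted p = 6.33e-06, edgeR). APOA4 (ENSG00000110244), best known from the intestine, measured 13.7, 8.58 and 8.44 CPM in control and 5.93, 5.63 and 4.96 CPM in MTR4 KD. Control 1 stood well above the other controls, and the groups did not overlap. The log2 fold change was -0.85 (SE 0.174, adjusted p = 0.00403, edgeR). Without MTR4 KD 3 it was -0.56 and not called (adjusted p = 0.0611), and with condition only it was not called either (adjusted p = 0.0631). APOC3, an inhibitor of lipoprotein lipase, and APOA5, its activator, had log2 fold changes of 0.19 each and were not called.

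Among the other apolipoproteins, APOB was high and not called. It encodes the structural protein of very low density lipoprotein and measured 3399, 3715 and 3461 CPM in control and 4021, 4271 and 3303 CPM in MTR4 KD. MTR4 KD 3 was below every control and the other MTR4 KD libraries were above them, so the log2 fold change of 0.05 (95% interval -0.06 to 0.17, adjusted p = 0.545, edgeR) became 0.17 without MTR4 KD 3 (adjusted p = 0.0414). APOH, or beta-2-glycoprotein I, which binds phospholipids, rose from 155 ± 8.75 to 212 ± 10.7 CPM (SD, n = 3 each; log2 fold change 0.49, adjusted p = 3.86e-06, edgeR). APOM, the carrier of sphingosine-1-phosphate, fell from 84.4 ± 3.51 to 72.5 ± 2.56 CPM (SD, n = 3 each; log2 fold change -0.19, adjusted p = 0.00685, edgeR). Its call was lost without MTR4 KD 1 (adjusted p = 0.0522) and without MTR4 KD 3 (adjusted p = 0.0886). APOA2 had a log2 fold change of 0.01 with a 95% interval of -0.08 to 0.10, and APOF one of -0.26 with an interval of -1.19 to 0.67. APOC2, the cofactor of lipoprotein lipase, had 0 to 5 reads per library and was not tested, and the readthrough gene APOC4-APOC2, which covers part of it, had 0 to 7.

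Genes for the assembly and remodelling of lipoproteins gave 1 call in each direction. A1CF (ENSG00000148584), a partner of the enzyme that edits APOB mRNA, measured 118, 137 and 111 CPM in control and 208, 202 and 164 CPM in MTR4 KD. The groups did not overlap, and the log2 fold change was 0.55 (SE 0.0432, adjusted p = 1.91e-06, edgeR). MTTP, the microsomal transfer protein that loads lipid onto APOB, fell from 98.5 ± 3.37 to 75.9 ± 2.60 CPM (SD, n = 3 each; log2 fold change -0.40, adjusted p = 1.85e-05, edgeR). PON3 (ENSG00000105852), a lactonase carried on high density lipoprotein, had the most CPM per kb of exon in this group. It measured 117, 113 and 119 CPM in control and 110, 106 and 114 CPM in MTR4 KD, and its groups overlapped (log2 fold change -0.06, 95% interval -0.14 to 0.03). LCAT, which esterifies cholesterol in plasma, and PON1, the neighbour of PON3, had log2 fold changes of 0.27 and 0.48 and were not called.

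By position, 29 of the 50 genes lay in 10 clusters with at least 1 other of them within 500 kb. Only the clusters of APOA1 and HRG held genes called in both directions. The ITIH cluster on chromosome 3 had ITIH1 and ITIH3 called higher, and the APOE cluster on chromosome 19 had APOE and APOC1 called higher. In the SERPINA cluster on chromosome 14, SERPINA6 and SERPINA5 were called higher and SERPINA1 was not called. HP had no other of the 50 beside it, but its near copy HPR was called higher (log2 fold change 1.18, adjusted p = 0.0114, edgeR), and reads may be shared between HP and HPR.

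Further secreted liver proteins, a list of 22 genes outside the 50, included neighbours of several of them. Of 20 tested, 11 were called higher and 2 lower, with a median log2 fold change of 0.27. Over all tested genes 9.43% were called higher and 10.8% lower. SERPINF2, the plasmin inhibitor, rose by a log2 fold change of 0.65 (adjusted p = 9.77e-07, edgeR). LBP, an acute-phase protein that binds bacterial lipopolysaccharide, fell from 18.2 ± 2.59 to 7.40 ± 1.78 CPM (SD, n = 3 each; log2 fold change -1.42). ANG, the angiogenin gene, was called lower with a log2 fold change of -0.22. With condition only, 5 genes of this list were higher and 1 lower, where 3.60% of all tested genes were called in either direction. HPR (adjusted p = 0.0641, edgeR) and ANG (adjusted p = 0.193) lost the call.

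Of 18 genes of acute-phase signalling, 17 were tested, 2 were called higher and 9 lower, with a median log2 fold change of -0.17. The shares over all tested genes were 9.43% higher and 10.8% lower. The lower genes included OSMR, the oncostatin M receptor (log2 fold change -0.69), SOCS3, the feedback inhibitor of interleukin-6 signalling (-0.68), CEBPD (-0.47) and PIAS3 (-0.35). The higher genes were IL1RAP, a subunit of the interleukin-1 receptor (log2 fold change 0.65), and IL6ST, the shared signalling subunit of interleukin-6 type receptors (0.27). With condition only, OSMR and IL1RAP kept the call, and the other 9 lost it (adjusted p = 0.103 for SOCS3, 0.193 for CEBPD, 0.0996 for PIAS3 and 0.0837 for IL6ST, edgeR).

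Liver transcription factors, all 18 of which were tested, gave 5 higher and 7 lower with a median of 0.03. Among all tested genes 9.43% were higher and 10.8% lower. All 12 calls of these factors rested on the class term. With condition only, edgeR called 0 of the 18 after adjustment, and 9 had an unadjusted p under 0.05. The share of all tested genes with such an unadjusted p was not computed. CEBPA measured 26.8, 7.49 and 28.6 CPM in control and 11.9, 13.6 and 41.1 CPM in MTR4 KD. Its groups overlapped, and the libraries with more non-unique reads were higher in both. The log2 fold change was 0.65 with class (adjusted p = 5.44e-05, edgeR) and 0.08 with condition only (adjusted p = 0.957). TCF7L2, NR0B2, PROX1 and ZHX2, a repressor of AFP, were called lower with class, with log2 fold changes between -0.39 and -0.26.

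Among 22 genes of lipoprotein receptors and handling, 18 were tested, 4 were called higher and 5 lower, with a median log2 fold change of -0.14. Of all tested genes, 9.43% were called higher and 10.8% lower. VLDLR (log2 fold change -0.91) and PLTP, the phospholipid transfer protein (-1.17), were lower, from control means of 1.54 and 1.06 CPM. SCARB1, the receptor for high density lipoprotein, was called lower with a log2 fold change of -0.21, and its groups overlapped. LIPC, the hepatic lipase, was called higher with one of 0.25. None of these 4 kept the call with condition only (adjusted p = 0.113 for VLDLR, 0.174 for PLTP, 0.286 for SCARB1 and 0.113 for LIPC, edgeR). That fit gave SCARB1 a log2 fold change of -0.36. It called 2 of the 18 genes, where 3.60% of all tested genes were called.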

How the data were processed

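RNA-seq libraries of PLC/PRF5 cells, 3 control and 3 MTR4 KD, were grouped by their labels. The authors deposited raw counts of reads per Ensembl gene for each library, without normalization, with the entries that were counted on no gene. The paper's methods and the submitters' processing notes name HISAT2 2.1.0 and GRCh38, and the notes also name HTSeq and DESeq2. The HTSeq version and strand setting are not given in the sources used here. Reads that fall on overlapping genes or align to several places can be lost in such counts. Entries on no gene (between 37.7% and 49.3% per library) were left out of library sizes.

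The counts were compared with edgeR 4.0.16 in R 4.3.3 (limma 3.58.1, DESeq2 1.42.0 as alternatives): filterByExpr with a minimum count of 10, TMM, and the quasi-likelihood test with library class and condition as terms, with Benjamini-Hochberg adjustment over 18075 genes. Library class was set by a share of non-unique alignments over 30%. Neither the labels nor the paper name it. CPM gives counts in every 1000000 reads after TMM scaling of each library. The biological coefficient of variation was 0.0573 with class and 0.175 without. Symbols were matched by Ensembl ID for 56959 of 60675 genes. Positions and promoters are from RefSeq (GRCh38.p14), and exon lengths and overlaps are from GENCODE lifted to GRCh37. Tables and plots used Python 3.11.15, pandas 2.3.3 and matplotlib 3.10.9.

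The members, the gene lists and the class term were chosen with earlier results of these data known. Values in each library are given for called members with an absolute log2 fold change of at least 0.5, for ALB and AFP, and for the member with most CPM per kb in each role, and from each other list at most 4 genes per direction are named. The values of 2 genes that this rule covers are not reported here. APOB and SAA1 were given in each library after their values were seen. On simulated counts of this design with 200 genes changed 2-fold among 17789, the procedure recovered 165 (82.5%) and called 15 others. The changed genes were drawn without those of the lowest counts, so this rate does not cover members such as SAA1, FETUB and AZGP1. Alternatives were DESeq2 size factors, total counts, no low-count filter, condition only, the replicate number as a block, DESeq2's Wald test, limma-voom, each library left out in turn, and a fold over 2 as well.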

Additional observations from a re-analysis of the deposited data

Results flagged for a closer look

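Among the genes of the other lists, 2 had a change that differed between the library classes by edgeR's interaction test, and none of the 41 tested plasma protein genes did after adjustment. LRP1, a receptor that clears APOE-bearing particles, had a log2 difference between MTR4 KD and control of -0.41 in the libraries with more and 0.20 in those with fewer non-unique reads, an interaction of 0.63 (adjusted p = 0.0156, edgeR). COL1A1, a fibrillar collagen and stromal marker, had 0.58 in the former class and -0.75 in the latter, an interaction of -1.33 (adjusted p = 0.0137, edgeR). Each class has 1 group with a single library (MTR4 KD 3 or control 2), which was taken to vary like the others.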

How the results depend on the processing

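None of the 22 called plasma protein genes (members) changed sign under the alternatives run. The members called higher and lower numbered 15 and 7, and stayed at 15 and 7 with DESeq2 size factors and with total counts, while no low-count filter gave 16 and 9, DESeq2's Wald test 15 and 8, and limma-voom 15 and 9. A fold over 2 as well left 4 higher and 1 lower among the members, 347 of the 3649 genes called and 5 of the 45 in the other lists. With condition only, 12 members were higher and 4 lower, with 650 genes called in all and 10 in the other lists. These 10 were 2 of lipoprotein handling, 2 of acute-phase signalling, 6 further secreted proteins and 0 liver transcription factors. Leaving out each library in turn gave between 14 and 16 members higher, between 5 and 7 lower, and between 2409 and 2947 genes in all, the fewest without MTR4 KD 1; MTREX stayed between -0.89 and -0.73. The calls of SERPINA5, AHSG, APOA4 and APOM were lost without MTR4 KD 3.

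Deviations from the group means correlated across genes at -0.24, 0.32 and 0.35 for same-numbered pairs. The range was 0.32 to 0.36 for the 4 pairs of the same library class and -0.49 to -0.23 for the other 5. These values follow the class, so whether the replicate numbers pair the libraries cannot be read from them. With the replicate block, 12 members were higher and 5 lower, with 857 genes called in all and 12 in the other lists, and ALB, SERPINA6, SERPINA5, ITIH2 and APOM lost the call. The interaction with library class called 0 members, also with DESeq2 size factors, and 1 (APOB) with no filter on low counts. DESeq2's Wald test gave no adjusted p for 3 of the 41, which were left out of its counts. The 9 untested members had at most 13 reads in a library, too few to compare.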

Other observations

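The markers of other cell types that were called were all lower after MTR4 knockdown. KRT19, a keratin of bile duct cells, fell from 0.90 ± 0.18 to 0.14 ± 0.08 CPM (SD, n = 3 each; log2 fold change -2.50, adjusted p = 0.00168, edgeR), and SOX9, a factor of biliary and progenitor cells, from 20.04 ± 4.30 to 12.6 ± 2.59 CPM (log2 fold change -0.49, adjusted p = 5.03e-04, edgeR). CD14 (log2 fold change -1.43, adjusted p = 0.00821, edgeR) and COL3A1 (log2 fold change -0.82, adjusted p = 0.0398, edgeR) fell from control means under 2 CPM. The SOX9 groups overlapped (15.1 CPM in control 2 and 15.4 CPM in MTR4 KD 3). With condition only, KRT19 kept the call (adjusted p = 0.0318, edgeR), and SOX9 (adjusted p = 0.131), CD14 (adjusted p = 0.0820) and COL3A1 (adjusted p = 0.205) lost it. PTPRC, the leukocyte marker CD45, was highest in control 3 (1.81 CPM) and MTR4 KD 3 (0.538 CPM) and between 0 and 0.130 CPM in the other 4 libraries. CD3E, a T cell marker, was likewise at 0.514 and 0.408 CPM in those 2 libraries and between 0 and 0.0162 CPM in the others.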
